A study of Mus musculus with 12 samples.

Results

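The clustered protocadherins are cell adhesion molecules of the cadherin superfamily, encoded in mouse by 3 neighbouring gene clusters, alpha, beta and gamma. Members were the genes whose symbol in the deposited tables begins Pcdha, Pcdhb or Pcdhg followed by an isoform number or letter. They numbered 58, with 14 in the alpha, 22 in the beta and 22 in the gamma cluster. A member was tested in an organ where it reached 1 CPM (reads scaled to the library total) in at least 3 of the 6 libraries of that organ. In the cochlea 50 of 57 listed members passed, among 17985 of 28342 genes, and in the vestibule 55 of 58, among 15595 of 24726 genes. Those under the filter were Pcdha1, Pcdha4, Pcdha6, Pcdha7, Pcdha8, the downstream of 2 Pcdha11 entries and Pcdhb1 in the cochlea, and Pcdha4, Pcdha5 and Pcdha8 in the vestibule. Of the members, 49 passed in both organs and 56 in either.

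Ribosome-bound RNA was compared between Gfi1 mutants (Gfi1Cre/Cre) and heterozygotes (Gfi1Cre/+) in the cochlea and vestibule of newborn mice at postnatal day 0 to 1. Both genotypes carried RiboTagHA/HA, homozygous for a ribosomal protein gene that gains an HA tag where Cre acts, and an antibody against HA then pulled down the tagged ribosomes with their RNA. Each genotype gave 3 libraries per organ, 12 in all, described by the series as independent biological triplicates. Cre was driven from the Gfi1 locus itself, so mutants carried 2 copies of Cre and heterozygotes 1, and Cre dose and loss of Gfi1 cannot be told apart. Hair cells, which turn sound and motion into nerve signals, express Gfi1, as do some blood cells. The labels call the cochlear samples enriched hair cells and the vestibular ones enriched vestibular cells. Cochlear and vestibular libraries came from different kits, so organ and kit cannot be told apart and levels were not compared between organs.

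Each alpha and gamma isoform is read from its own promoter and its own large variable exon, which encodes the whole extracellular part, and is spliced to constant exons shared by the cluster. Beta isoforms lack constant exons. In neurons each cell uses a small set of promoters, chosen largely at random with the help of CTCF, cohesin and DNA methylation, and the resulting mixture of homophilic adhesion molecules lets a cell tell its own branches from those of others. The C-type isoforms Pcdhac1, Pcdhac2, Pcdhgc3, Pcdhgc4 and Pcdhgc5 lie at the ends of the alpha and gamma clusters and differ in regulation from the rest.

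All members lie on the plus strand of chromosome 18 (GRCm38), the alpha cluster at 36930184 to 37187661, the beta cluster at 37264938 to 37524479 and the gamma cluster at 37661793 to 37841873. In the GENCODE annotation a median of 53.6% of the exon bases of an alpha gene and 44.7% of those of a gamma gene were shared with another gene, mainly in the constant exons. The beta genes shared none in 20 of 22 cases. How the authors assigned reads over shared exons was not given, so a value of an alpha or gamma gene is mostly that of its variable exon only if shared reads were dropped. Pcdha4 was at 0 in 5 of 6 vestibular libraries, so reads over the constant exons were not counted to every alpha gene. Near-identical stretches also limit single genes: a median of 14.0% of the unshared 50-base windows of an alpha gene recurred in another member, against 3.48% in beta and 0.810% in gamma. The highest shares among members called in either organ were 25.3% for Pcdha7, 16.8% for Pcdhgb1 and 16.4% for Pcdha6. Both ENSMUSG00000007440 and ENSMUSG00000102206 carried the symbol Pcdha11. The upstream one, ENSMUSG00000007440, begins 117 bases before the RefSeq start of Pcdha10 in GRCm38.p6, and the downstream one begins 146 bases before that of Pcdha11, so the upstream entry may be a Pcdha10 under another name and is called the upstream Pcdha11 entry here. Levels between genes are compared only as CPM per kb of unshared exon.

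Cochlear libraries held 7531518 to 9363796 reads, with 1 read worth 0.107 to 0.133 CPM. Vestibular libraries held 18951026 to 29370267 reads, with 1 read worth 0.0340 to 0.0528 CPM. Gfi1, which checks the genotype, was at 75.1, 64.3 and 69.1 CPM in cochlear mutants, against 165, 106 and 126 CPM in heterozygotes, and at 236, 198 and 208 CPM in vestibular mutants, against 534, 450 and 483 CPM in heterozygotes. Its log2 change was -0.90 (adjusted p = 0.00355) in the cochlea and -1.19 (adjusted p = 0.00234) in the vestibule. All 12 hair cell markers were listed in both organs. The libraries were not of hair cells alone, since 12 macrophage markers summed to 2753 to 3357 CPM in cochlear mutants and 2252 to 2840 CPM in heterozygotes. In the vestibule they summed to 7047 to 8268 CPM in mutants and 7415 to 9362 CPM in heterozygotes. On the first axis of a principal component analysis (45.5% of the variance) the vestibular replicate 1 libraries of both genotypes stood apart, and on the second cochlear axis (24.0%) the replicate 3 libraries did. Results are given with and without them.

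All 3 clusters were at higher summed levels in mutants than in heterozygotes, in both organs, and the groups did not overlap. In the vestibule the 11 tested alpha genes summed to 113, 119 and 120 CPM in mutants, against 42.8, 55.6 and 38.0 CPM in heterozygotes, a 2.59-fold ratio of means. The 22 beta genes summed to 198, 209 and 221 CPM in mutants, against 115, 138 and 127 CPM in heterozygotes (1.65-fold), and the 22 gamma genes to 153, 172 and 171 CPM in mutants, against 97.6, 124 and 112 CPM in heterozygotes (1.49-fold). Such sums are weighted toward the best expressed members of each cluster. In the cochlea 8 alpha genes summed to 35.0, 57.9 and 50.03 CPM in mutants, against 19.2, 26.4 and 17.6 CPM in heterozygotes (2.26-fold). The 21 beta genes summed to 294, 285 and 262 CPM in mutants, against 239, 245 and 202 CPM in heterozygotes (1.23-fold), and the 21 gamma genes to 396, 371 and 363 CPM in mutants, against 305, 297 and 293 CPM in heterozygotes (1.26-fold). Rescaling by the median of ratios left every sum above except the cochlear beta sum, whose groups then overlapped. The summed level of mitochondrial genes also moved with genotype. It was 58560, 69790 and 27150 CPM in cochlear mutants, against 78540, 77070 and 33210 CPM in heterozygotes, and 2368, 5156 and 1282 CPM in vestibular mutants, against 7212, 8626 and 2733 CPM in heterozygotes. The mutant was the lower one of every same-numbered pair, although the ranges overlapped in both organs, and its part in the protocadherin sums was not tested. In such bulk samples, more tagged cells that hold these RNAs and more RNA per cell cannot be told apart.

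**Figure D1:**
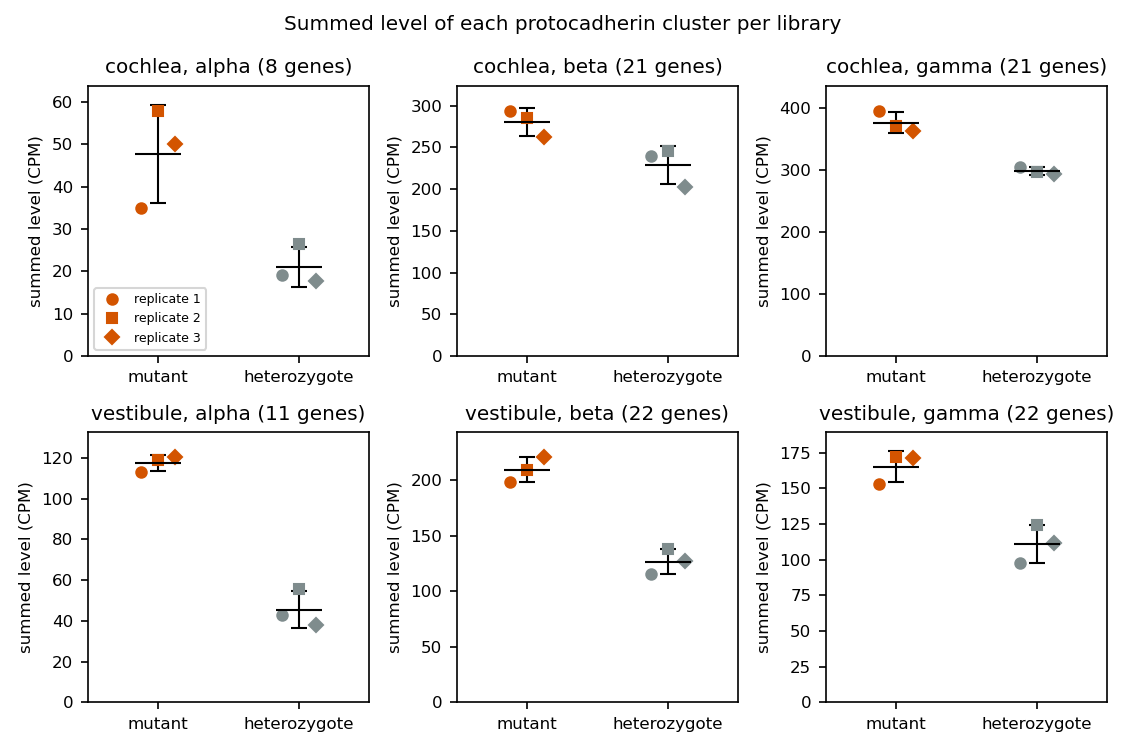
Summed CPM of the tested members of each cluster (y axis, from 0) in the 3 mutant and 3 heterozygous libraries of each organ; points are libraries, with the shape giving the replicate number, and bars are the mean and SD. Every mutant library lies above every heterozygous library in all 6 panels; in the vestibular alpha panel, which has the largest ratio of means, the libraries lie at 113 to 120 CPM in mutants and 38.0 to 55.6 CPM in heterozygotes.

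In the vestibule 15 of the 55 tested members rose in mutants and none fell, by limma across all genes tested (adjusted p under 0.05). That is 27.3% of the members, where 2.41% of all genes tested were called higher and 1.09% lower. They comprised 7 of 11 alpha, 5 of 22 beta and 3 of 22 gamma genes. No member was lower at an unadjusted p under 0.05 either (8.2% of all genes were), while 28 were higher (7.9% of all genes). With edgeR on the recovered reads 11 were higher and 0 lower (2.51% and 0.853% of all genes). Mutant libraries all lay above heterozygous ones for 28 members (50.9%, against 10.7% of all genes tested) and all below for 1, Pcdhgc4 (against 11.6%). The log2 change was above 0 for 49 of 55 members (89.1%, against 41.5% of all genes). Its median was 1.30 over the alpha, 0.52 over the beta and 0.45 over the gamma genes, beside -0.06 over all genes tested. Since a member could pass the filter through its level in mutants alone, these counts describe the tested members and not the 58. Of the 15, Pcdha1, Pcdha6, the upstream Pcdha11 entry and Pcdhb4 were under 1 CPM in at least 1 heterozygous library. The heterozygous libraries alone would not have taken these genes past the filter, so their calls rest in part on it.

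The number of vestibular calls depended on single libraries. Leaving out heterozygote replicate 1, 2 or 3 gave 12, 7 or 9 calls, and leaving out mutant replicate 1, 2 or 3 gave 8, 8 or 6, all of them among the 15. Without both replicate 1 libraries there were 13, and with no filter on low values 7. Shares of all genes called are not given for these fits. Whether calls over all genes fell as much when libraries were left out was not compared. With the replicate number as a block, 27 members were called higher and none lower (10 alpha, 9 beta and 8 gamma), but 10.5% of all genes were then called higher too and 12.8% lower. The 6 members called whichever library was left out were the upstream Pcdha11 entry, Pcdhac2, Pcdhb5, Pcdhb14, Pcdhb17 and Pcdhga3.

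**Figure D2:**
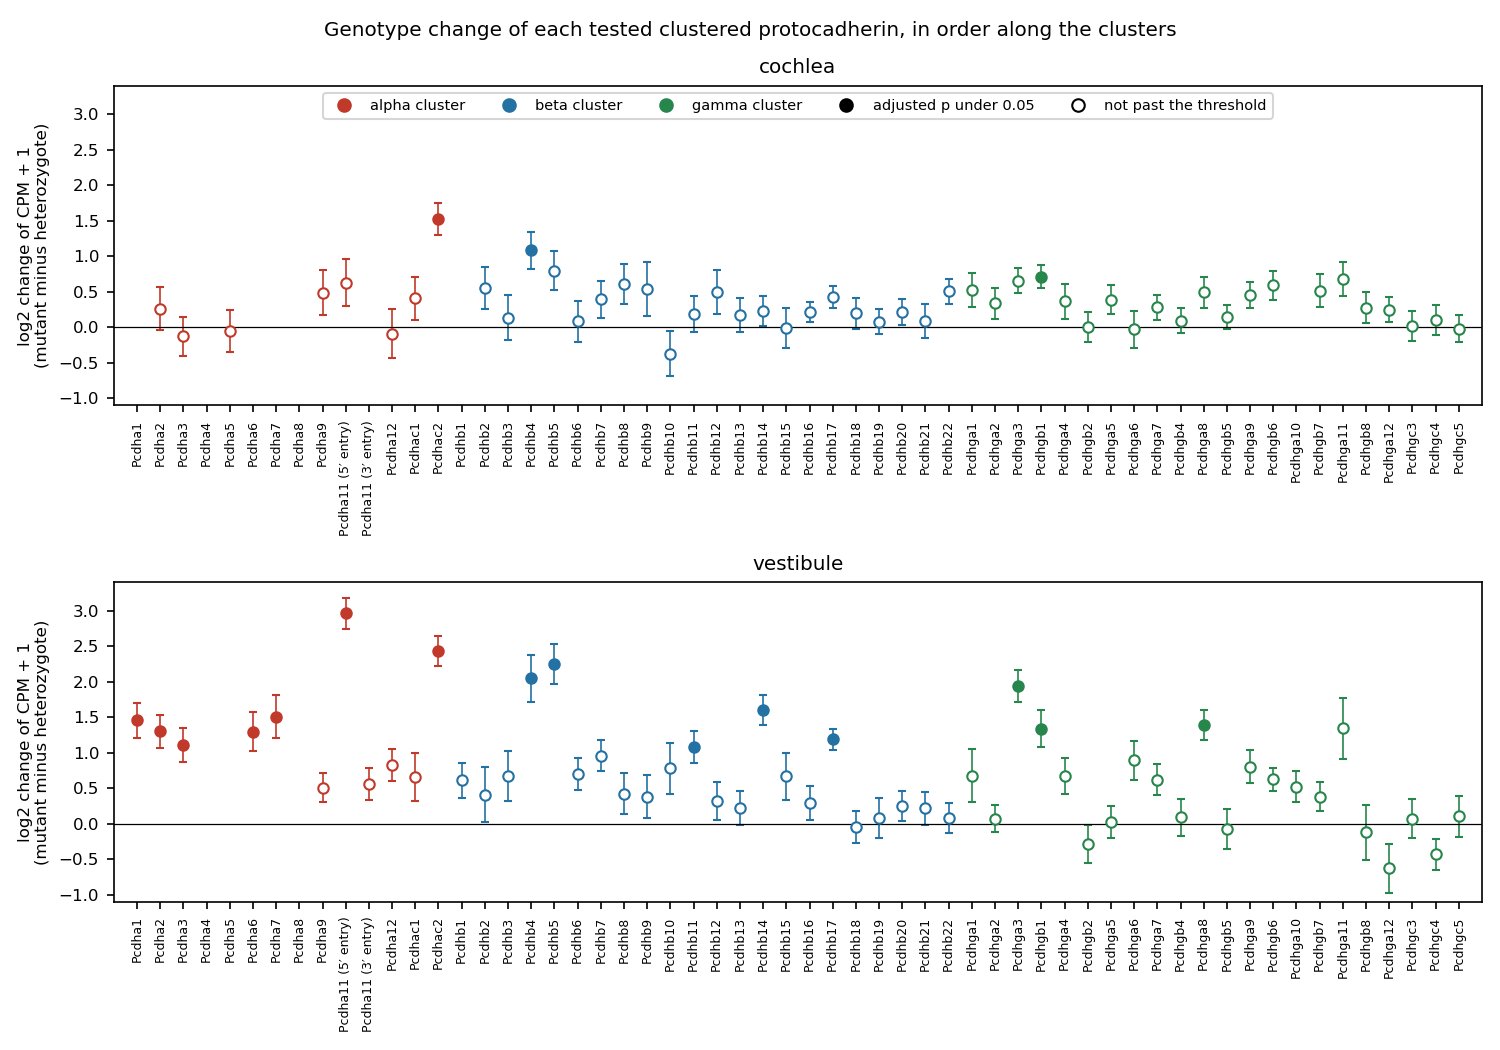
Log2 change of CPM + 1 (y axis, mutant minus heterozygote, with its standard error from limma) of every tested member, in order along the chromosome and coloured by cluster, in the cochlea (top) and vestibule (bottom); filled points passed the threshold and members that were not tested have no point. The vestibular points reach 2.97 and 11 of 11 alpha genes lie above 0, while the cochlear points reach 1.53.

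Among the vestibular alpha genes, the upstream Pcdha11 entry had the largest change. It stood at 13.5, 13.3 and 14.9 CPM in mutants, against 1.25, 0.713 and 0.783 CPM in heterozygotes, so the groups lay far apart. Its log2 change was 2.97 (SE 0.22, adjusted p = 0.000378). Of its unshared 50-base windows, 15.1% recurred in another member. Pcdhac2, a C-type isoform known in mouse for the tiling of serotonergic axons, was at 15.9, 19.7 and 14.9 CPM in mutants, against 1.87, 2.39 and 2.59 CPM in heterozygotes, again without overlap. It rose by 2.44 on the log2 scale (SE 0.21, adjusted p = 0.000851), and none of its unshared 50-base windows recurred in another member. The other C-type alpha gene, Pcdhac1, was at 6.07, 10.9 and 10.5 CPM in mutants, against 3.39, 8.39 and 4.97 CPM in heterozygotes, and these ranges overlapped. It did not pass (log2 0.66, adjusted p = 0.393) except with the replicate block (adjusted p = 0.0240).

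Of the other alternate alpha isoforms, Pcdha2 was the best expressed of those that rose, at 19.3, 12.7 and 16.1 CPM in mutants, against 5.09, 7.17 and 5.35 CPM in heterozygotes (log2 1.30, adjusted p = 0.0186). Pcdha7 was at 10.2, 6.92 and 10.03 CPM in mutants, against 2.81, 3.65 and 1.40 CPM in heterozygotes (log2 1.51, adjusted p = 0.0328). Neither gene had overlapping groups. Pcdha1 was at 2.43, 2.34 and 2.62 CPM in mutants, against 0.446, 0.252 and 0.102 CPM in heterozygotes, where it was close to undetected (log2 1.46, adjusted p = 0.0155). It passed the filter through its mutant libraries alone. Pcdha3, at 4.33, 5.56 and 5.69 CPM in mutants, against 1.34, 2.22 and 2.08 CPM in heterozygotes, rose by 1.11 (adjusted p = 0.0467). Pcdha6, at 3.06, 4.08 and 3.85 CPM in mutants, against 0.670, 1.55 and 0.579 CPM in heterozygotes, rose by 1.30 (adjusted p = 0.0432). These 5 calls were the less secure ones. Pcdha2 lost its call without heterozygote replicate 3, mutant replicate 1 or mutant replicate 3, Pcdha1 and Pcdha7 without any library but heterozygote replicate 1, and Pcdha3 and Pcdha6 without any library, with adjusted p up to 0.179. Pcdha3 and Pcdha6 also missed the threshold with a pseudocount of 0.25, and they and Pcdha7 in edgeR. The alpha gene with the highest level per kb in the vestibule, Pcdha12, was at 20.8, 21.6 and 23.1 CPM in mutants, against 12.6, 15.4 and 8.55 CPM in heterozygotes. Its groups did not overlap, but it did not pass (log2 0.83, adjusted p = 0.101; 0.00335 with the block). Pcdha9 had the smallest change of the cluster, with 8.34, 9.85 and 9.42 CPM in mutants, against 7.37, 5.24 and 6.06 CPM in heterozygotes (log2 0.51, adjusted p = 0.274).

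In the beta cluster, whose genes are intronless and thus measured over their whole length, the vestibular calls were Pcdhb4, Pcdhb5, Pcdhb11, Pcdhb14 and Pcdhb17. Pcdhb5 was at 13.0, 12.2 and 17.5 CPM in mutants, against 1.21, 2.73 and 2.86 CPM in heterozygotes (log2 2.25, SE 0.28, adjusted p = 0.00437). Pcdhb14 was at 14.1, 16.1 and 12.6 CPM in mutants, against 4.37, 3.19 and 4.53 CPM in heterozygotes (log2 1.61, SE 0.21, adjusted p = 0.00536). Pcdhb17 was among the best expressed beta genes, with 36.1, 34.2 and 34.3 CPM in mutants, against 16.3, 14.6 and 13.5 CPM in heterozygotes (log2 1.19, SE 0.15, adjusted p = 0.00460). The groups were well separated for these 3 genes. Pcdhb4 was more variable, at 11.2, 4.67 and 9.21 CPM in mutants, against 1.12, 0.755 and 1.70 CPM in heterozygotes (log2 2.05, adjusted p = 0.0143). Leaving out heterozygote replicate 2 or mutant replicate 3 ended the call, with a highest adjusted p of 0.0753. Pcdhb11, at 10.7, 10.4 and 14.2 CPM in mutants, against 6.12, 5.08 and 3.95 CPM in heterozygotes (log2 1.08, adjusted p = 0.0425), lost its call without any library but heterozygote replicate 1 (adjusted p up to 0.177) and in edgeR.

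Not all well expressed beta genes passed. Pcdhb18, which lies directly after Pcdhb17 and had the highest level per kb of the cluster in heterozygotes (5.17 CPM per kb), was at 21.4, 26.9 and 25.8 CPM in mutants, against 18.5, 33.7 and 26.0 CPM in heterozygotes. The groups overlapped and the log2 change was -0.04 (adjusted p = 0.960). Pcdhb16, on the other side, overlapped as well (log2 0.29, adjusted p = 0.632). Over the 22 vestibular beta genes the rank correlation of log2 change with order along the cluster was -0.58, a description over genes that share libraries. Over the 21 cochlear beta genes it was -0.33. Pcdhb1, the first gene of the cluster and an exception among beta genes in lacking the promoter element that CTCF binds, was at 11.9, 8.28 and 14.5 CPM in mutants, against 8.79, 6.50 and 6.13 CPM in heterozygotes (log2 0.61, adjusted p = 0.282; 0.0368 with the block).

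In the gamma cluster Pcdhga3, Pcdhga8 and Pcdhgb1 rose in the vestibule. Pcdhga3 was at 18.4, 12.5 and 20.8 CPM in mutants, against 3.66, 3.73 and 3.58 CPM in heterozygotes (log2 1.94, SE 0.23, adjusted p = 0.00362). Pcdhga8 was at 8.28, 8.66 and 10.4 CPM in mutants, against 3.39, 2.52 and 2.69 CPM in heterozygotes (log2 1.39, adjusted p = 0.0109), and Pcdhgb1 at 6.23, 6.41 and 6.68 CPM in mutants, against 1.16, 2.14 and 2.76 CPM in heterozygotes (log2 1.34, adjusted p = 0.0303). The groups were apart for all 3. The Pcdhga8 call was lost without heterozygote replicate 2, mutant replicate 2 or mutant replicate 3, and the Pcdhgb1 call without any library but heterozygote replicate 3 (adjusted p up to 0.122). By subtype, the 12 gamma A genes summed to 86.9 to 99.0 CPM in mutants, against 46.5 to 53.9 CPM in heterozygotes (1.84-fold). The 7 gamma B genes summed to 48.0 to 53.7 CPM in mutants, against 34.8 to 43.1 CPM in heterozygotes (1.30-fold). Both subtypes were above without overlap. Pcdhgb6, the best expressed gamma gene per kb in mutants (7.23 CPM per kb), had a log2 change of 0.63 (adjusted p = 0.0874; 0.00720 with the block), and Pcdhga7 of 0.62 (adjusted p = 0.201; 0.0181 with the block).

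The gamma C-type isoforms did not pass in either organ. Pcdhgc3, linked to Axin1 and Wnt signalling, had the highest level per kb of the vestibular gamma genes in heterozygotes. It was at 14.6, 23.0 and 13.6 CPM in mutants, against 12.0, 22.02 and 14.7 CPM in heterozygotes, with the groups overlapping (log2 0.07, adjusted p = 0.945). Pcdhgc4, the isoform on which survival of many neurons depends in mouse, was at 2.01, 2.55 and 2.33 CPM in mutants, against 3.35, 3.73 and 3.23 CPM in heterozygotes. All mutant libraries were below all heterozygous ones, but the change did not pass (log2 -0.43, adjusted p = 0.389; 0.174 with the block). Pcdhgc5 was at 1.11, 1.49 and 2.29 CPM in mutants, against 1.03, 1.22 and 2.11 CPM in heterozygotes (log2 0.10, adjusted p = 0.920). The largest negative value of any member was that of Pcdhga12, at 1.16, 2.55 and 0.696 CPM in mutants, against 2.63, 3.73 and 1.80 CPM in heterozygotes (log2 -0.63, adjusted p = 0.429), with overlapping groups.

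**Figure D3:**
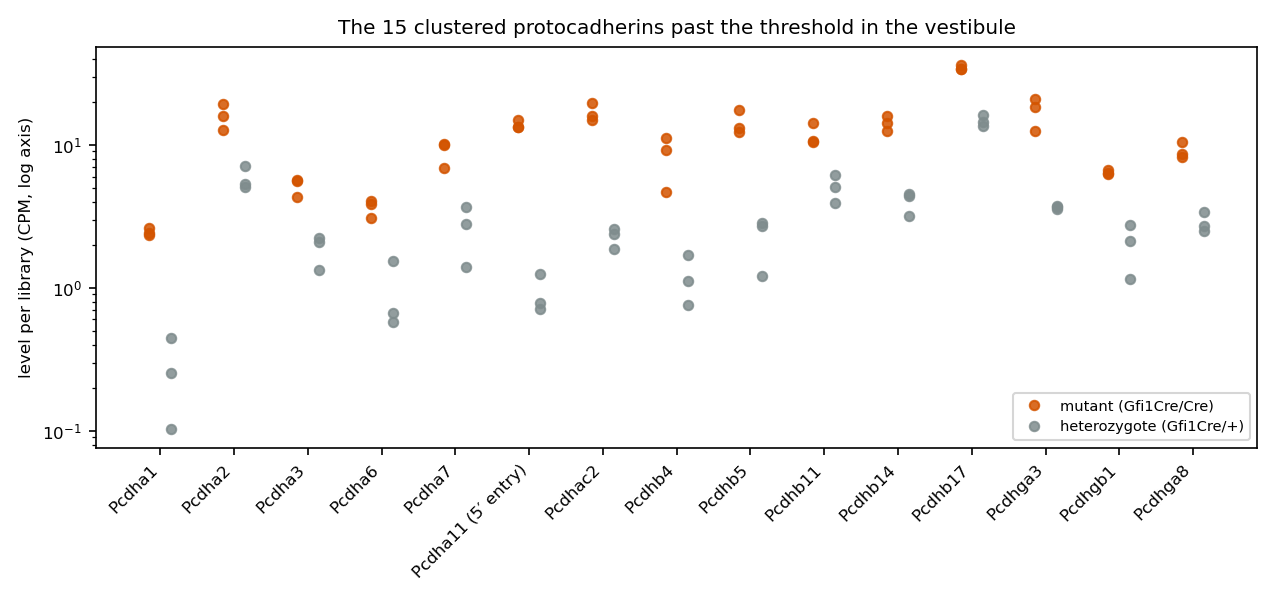
CPM of the 15 members that rose in the vestibule (y axis, log scale), with 1 point per library, mutants to the left of heterozygotes for each gene. No gene has overlapping groups, which the choice of called genes favours; mean levels run from 2.46 CPM (Pcdha1) to 34.9 CPM (Pcdhb17) in mutants and from 0.267 CPM (Pcdha1) to 14.8 CPM (Pcdhb17) in heterozygotes.

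In the cochlea 3 of the 50 tested members rose in mutants and none fell, 6% of the members where 1.9% of all genes tested were called higher and 2.52% lower. They were Pcdhac2, Pcdhb4 and Pcdhgb1, 1 from each cluster. At an unadjusted p under 0.05, 14 members were higher and 0 lower (6.55% and 5.6% of all genes), and edgeR called 3 higher and 0 lower (1.67% and 2.85% of all genes). Mutant libraries all lay above heterozygous ones for 12 members (24%, against 9.74% of all genes) and all below for 0 (against 7.77%). The log2 change was above 0 for 43 of 50 members (86%, against 59.2% of all genes). Its median was 0.33 over the alpha, 0.22 over the beta and 0.33 over the gamma genes, beside 0.05 over all genes tested. With the replicate block 6 members were called, with Pcdhga3, Pcdhb17 and Pcdhb22 added, and 4.21% of all genes were then called higher and 4.31% lower. Pcdhb22 is named for this count after its values were seen. Without both replicate 3 libraries the same 3 members were called. Without heterozygote replicate 2 or mutant replicate 1 there was 1, Pcdhac2. Shares of all genes called are not given for the fits that left out libraries.

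Pcdhac2 was at 24.4, 42.6 and 39.7 CPM in cochlear mutants, against 9.78, 14.5 and 10.3 CPM in heterozygotes, without overlap. It rose by 1.53 on the log2 scale (SE 0.23, adjusted p = 0.00112), and the call held without any 1 library (adjusted p up to 0.0127). Pcdhb4 was at 6.75, 7.74 and 4.75 CPM in mutants, against 2.03, 2.79 and 2.56 CPM in heterozygotes (log2 1.08, SE 0.26, adjusted p = 0.0267). Pcdhgb1, the gamma gene with the highest cochlear level per kb, was at 43.5, 35.4 and 42.5 CPM in mutants, against 26.0, 20.4 and 26.6 CPM in heterozygotes (log2 0.71, SE 0.16, adjusted p = 0.0225). Both sets of groups were apart. Pcdhb4 lost its call without replicate 1 or 2 of either genotype (adjusted p up to 0.134) and with no filter on low values, and Pcdhgb1 when heterozygote replicate 2, mutant replicate 1 or mutant replicate 3 was left out (highest adjusted p 0.120).

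The cochlear alpha sum rested on Pcdhac2. The 12 listed alpha genes other than the C-types summed to 12.2 to 16.9 CPM in mutants, against 9.93 to 13.8 CPM in heterozygotes, and these ranges overlapped. Pcdhac1 (log2 0.41, adjusted p = 0.729), Pcdha12 (log2 -0.09, adjusted p = 0.979) and Pcdha9 (log2 0.49, adjusted p = 0.661) did not pass, and the lowest alpha value was that of Pcdha3 (log2 -0.13, adjusted p = 0.948). Most cochlear alpha genes were at low levels, and 8 of 14 passed the filter. The beta and gamma genes had small positive values spread over many members. Pcdhb16, the beta gene with the highest level per kb, was at 48.1, 49.6 and 53.5 CPM in mutants, against 44.5, 48.3 and 37.4 CPM in heterozygotes, with overlapping groups (log2 0.22, adjusted p = 0.662). Pcdhb17 was at 47.2, 42.5 and 39.4 CPM in mutants, against 27.8, 35.2 and 32.4 CPM in heterozygotes, without overlap (log2 0.43, adjusted p = 0.188; 0.0478 with the block). Pcdhga3 was at 21.6, 19.1 and 23.0 CPM in mutants, against 12.8, 13.3 and 13.2 CPM in heterozygotes, also without overlap (log2 0.65, adjusted p = 0.0550; 0.0110 with the block). Pcdhb10 had the lowest value of all cochlear members (log2 -0.37, adjusted p = 0.796). Pcdhgc3, Pcdhgc4 and Pcdhgc5 overlapped between genotypes, with log2 changes of 0.02, 0.10 and -0.02 (adjusted p = 0.991, 0.944 and 0.990).

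The make-up of a cluster was described by the share of each listed member in its summed level. In the cochlea the shares overlapped between genotypes for 11 of 14 alpha, 20 of 22 beta and 17 of 21 gamma genes, and in the vestibule for 7 of 14 alpha, 13 of 22 beta and 11 of 22 gamma genes. In CPM, mutants lay above without overlap for 9.74% and below for 7.77% of all genes tested in the cochlea. In the vestibule this was 10.7% and 11.6%. Genes outside the clusters have no such share, so these CPM values are the nearest reference. The members given here are among those without overlap. Expressed as a share of the cluster's summed CPM per kb of unshared exon, Pcdhac2 made up 63.6% ± 5.97 of the cochlear alpha level in mutants and 43.1% ± 3.36 in heterozygotes (SD, n = 3 each), without overlap. In the vestibule its share was 12.3% ± 2.01 in mutants and 4.51% ± 1.31 in heterozygotes, and that of the upstream Pcdha11 entry was 12.3% ± 0.454 in mutants and 2.20% ± 0.851 in heterozygotes. The 2 best expressed alpha isoforms of vestibular heterozygotes held smaller shares in mutants. Pcdha12 held 19.5% ± 0.398 of the alpha level in mutants, against 28.3% ± 3.56 in heterozygotes, and Pcdha9 held 8.19% ± 0.574 in mutants, against 15.1% ± 4.45 in heterozygotes, although the mean CPM of neither was lower in mutants. In the vestibular beta cluster Pcdhb17 held 15.2% in mutants and 10.9% in heterozygotes, Pcdhb5 8.09% in mutants and 2.15% in heterozygotes, and Pcdhb18 9.89% in mutants and 17.4% in heterozygotes, each pair without overlap. In the vestibular gamma cluster Pcdhga3 held 11.4% in mutants and 3.76% in heterozygotes, without overlap. Shares within a cluster sum to 100%, so a member that gains lowers the rest, and no test was run on them.

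**Figure D4:**
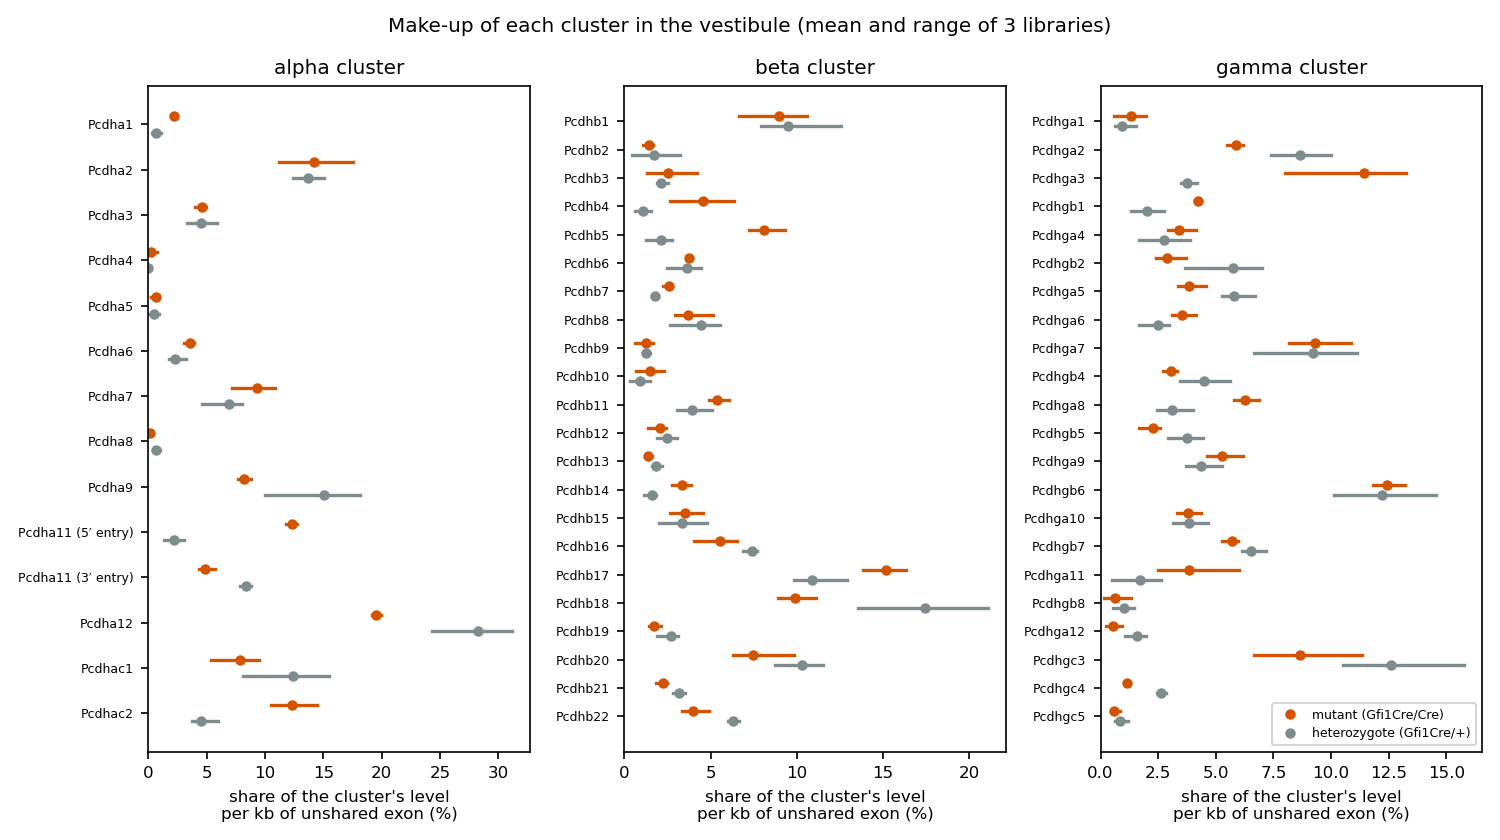
Share of each listed member in the summed level per kb of unshared exon of its cluster (x axis, percent) in the vestibule, in order along the cluster from top to bottom; points are the mean and lines the range of 3 libraries, mutants above heterozygotes. The upstream (5′) Pcdha11 entry, Pcdhac2, Pcdhb5 and Pcdhga3 hold larger shares in mutants (12.3%, 12.3%, 8.09% and 11.4%), and Pcdha12 and Pcdhb18 smaller ones (19.5% and 9.89%).

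All 3 cochlear calls were also vestibular calls, 100% of the cochlear and 20% of the vestibular list. Of all genes tested, limma called 341 higher in the cochlea and 376 in the vestibule. Of the 14674 genes tested in both organs, 122 were called higher in both. Of the 15 vestibular calls 12 were tested in the cochlea, and 11 of those had a positive cochlear log2 change. Over the 49 members tested in both organs, 37 were positive in both and none was negative in both. Of all genes tested, 59.2% were above 0 in the cochlea and 41.5% in the vestibule. The share of all genes above 0 in both organs is not given. Pearson's r of the cochlear with the vestibular log2 changes was 0.55 (Spearman's rho 0.40), beside 0.30 (rho 0.14) over the 14674 genes tested in both, as a description over genes of the same libraries. Whether the change differed between organs was tested as an interaction. It passed for 3 of 49 members, all with the smaller change in the cochlea, where 2.43% of all genes tested were called in that direction and 0.709% in the other. At an unadjusted p under 0.05 there were 13 in that direction and 1 in the other (6.75% and 6.56% of all genes), and edgeR called 4 and 0 (2.91% and 0.607% of all genes). Members below 0 numbered 34 of 49 (38.1% of all genes), among them 7 of 7 alpha genes.

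The members whose change differed between organs were the upstream Pcdha11 entry, Pcdhga3 and Pcdhb14. The upstream Pcdha11 entry had a log2 change of 0.63 in the cochlea, where it was at 2.12, 3.36 and 0.811 CPM in mutants, against 0.635, 1.19 and 0.854 CPM in heterozygotes, with overlap, and of 2.97 in the vestibule. The difference, cochlear minus vestibular, was -2.34 (SE 0.41, adjusted p = 0.00434) and held without any 1 library (adjusted p up to 0.0155). For Pcdhga3 it was -1.29 (SE 0.28, adjusted p = 0.0176), lost without cochlear mutant replicate 2 or vestibular mutant replicate 3 (highest adjusted p 0.0590). Pcdhb14 was at 21.1, 23.2 and 20.2 CPM in cochlear mutants, against 18.2, 24.2 and 13.6 CPM in heterozygotes, with overlap. Its difference of -1.38 (SE 0.30, adjusted p = 0.0209) was lost without any of 6 single libraries (adjusted p up to 0.0642): cochlear heterozygote 1 or 2, cochlear mutant 1 or 3, vestibular heterozygote 2 or vestibular mutant 2. With the replicate block 9 members were called with the smaller and 1 with the larger change in the cochlea, where 6.43% and 6.9% of all genes were. Between 2 and 6 members were called under the other alternatives, 2 without both cochlear replicate 3 and 2 without both vestibular replicate 1 libraries. The log2(CPM + 1) scale, which understates changes of low genes, also limits this comparison in either organ. In heterozygotes the upstream Pcdha11 entry had a mean of 0.895 CPM in the cochlea and 0.915 CPM in the vestibule. Pcdhb14 had 18.6 and 4.03 CPM, and Pcdhga3 13.1 and 3.66 CPM, in the same order.

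**Figure D5:**
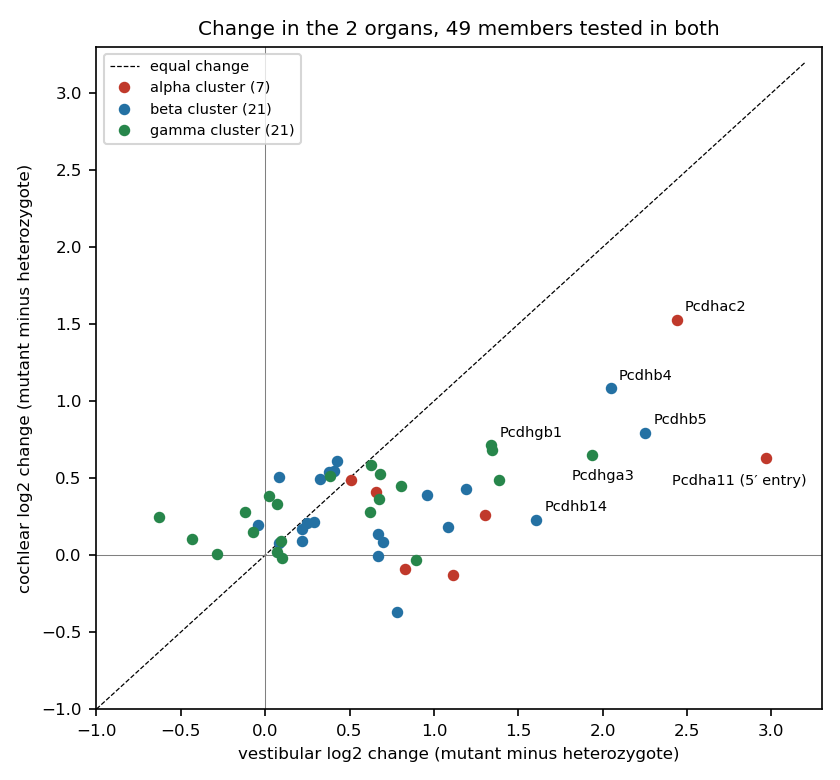
Log2 change (mutant minus heterozygote) in the vestibule (x axis) against the cochlea (y axis) for the 49 members tested in both organs, coloured by cluster, with a dashed line of equal change. No point is negative on both axes, and the upstream (5′) Pcdha11 entry, Pcdhb14 and Pcdhga3, whose difference between organs passed the test, lie well below the line.

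Of 21 regulators of promoter choice and silencing (CTCF, cohesin, DNA methylation and related genes), 1 rose in the vestibule, where 2.41% of all genes were called higher, and none fell. It was Smchd1, a chromatin protein whose loss in mouse is known to raise clustered protocadherin expression. Smchd1 was at 444, 473 and 471 CPM in vestibular mutants, against 81.3, 128 and 124 CPM in heterozygotes (log2 2.08, SE 0.18, adjusted p = 0.000810). In the cochlea it was at 308, 329 and 333 CPM in mutants, against 245, 254 and 275 CPM in heterozygotes, without overlap (log2 0.32, adjusted p = 0.197; 0.0220 with the block). No regulator was called in the cochlea (limma; 1 higher and 0 lower at an unadjusted p under 0.05, and 0 by edgeR). With the block 1 was higher in the cochlea, where 4.21% of all genes were. In the vestibule 3 were higher and 3 lower with the block, shares of 21 close to the 10.5% and 12.8% of all genes there. Smchd1 and the protocadherins were thus both higher in mutants, and a part of one in the other was not tested.

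Of all genes tested, limma called 1.9% higher and 2.52% lower in the cochlea, and 2.41% and 1.09% in the vestibule. With the replicate block it called 10.5% and 12.8% in the vestibule. Among 20 cytoplasmic partners and proteases of these adhesion molecules, 1 rose and 1 fell of 19 tested in the cochlea. Marcks, an actin-binding substrate of protein kinase C, was at 457, 409 and 363 CPM in mutants, against 228, 238 and 237 CPM in heterozygotes (log2 0.80, adjusted p = 0.00148). Prkca, which encodes that kinase's alpha form, fell by 0.51 (adjusted p = 0.0277), a call lost without any library but heterozygote replicate 3. In the vestibule Ret, a receptor tyrosine kinase that phosphorylates protocadherins, fell by 1.24 (adjusted p = 0.0310) as the single call of 20 tested, lost without any library but heterozygote replicate 1; with the block 2 rose and 6 fell. Of 12 protocadherins outside the clusters, 3 rose and 2 fell in the cochlea. Pcdh17 rose by 1.37, Pcdh8 by 0.93 and Pcdh10 by 0.95, and Pcdh15, part of the tip link of hair cell bundles, fell by 0.72 and Pcdh7 by 0.74. The Pcdh10 call was lost without mutant replicate 2 and the Pcdh7 call without heterozygote replicate 1 or any mutant library. In the vestibule 2 rose and none fell. Pcdh8 was at 267, 197 and 173 CPM in mutants, against 81.4, 49.1 and 50.9 CPM in heterozygotes (log2 1.81, adjusted p = 0.00487), and Pcdh1 rose by 0.72, lost without any library but heterozygote replicate 1. None of 12 was lower there by edgeR and 3 were at an unadjusted p under 0.05, while the block gave 3 higher and 2 lower. Pcdh15 was at 191, 260 and 284 CPM in vestibular mutants, against 101, 145 and 162 CPM in heterozygotes. Its groups did not overlap, and the log2 change was 0.85 (adjusted p = 0.0773; 2.04e-06 with the block), opposite in sign to the cochlear one.

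Genes that neighbour the clusters on the chromosome were not called higher in either organ without the replicate block. Of all genes tested in the vestibule, limma called 2.41% higher and 1.09% lower, and 10.5% and 12.8% with the block. In the cochlea it called 1.9% higher and 2.52% lower without the block. Of 20 tested in the vestibule none was called (limma; 0 higher and 4 lower at an unadjusted p under 0.05, and 0 by edgeR), and with the block 1 was higher and 5 lower. Their summed level was 1343 to 1367 CPM in vestibular mutants, against 1454 to 1597 CPM in heterozygotes. In the cochlea 1 of 19 was called, the splicing factor gene Ik, at 429, 389 and 403 CPM in mutants, against 621, 607 and 641 CPM in heterozygotes (log2 -0.61, adjusted p = 0.00692).

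Markers of other cell types moved with genotype as well. Beside the counts below, limma called 1.9% of all genes tested higher and 2.52% lower in the cochlea. In the vestibule it called 2.41% higher and 1.09% lower. With the replicate block these shares were 4.21% and 4.31% in the cochlea and 10.5% and 12.8% in the vestibule. Clustered protocadherins are abundant in neurons, and the 15 neuron markers summed to 2431 to 2532 CPM in vestibular mutants, against 1480 to 1714 CPM in heterozygotes, with 5 of 12 tested called higher and 1 lower. In the cochlea they summed to 2415 to 2547 CPM in mutants, against 1409 to 1581 CPM in heterozygotes, with 9 of 15 higher and 1 lower. No neuron marker was at 0 in every library; Elavl3, Stmn4 and Thy1 were at 0 in 1 vestibular library each. Several of these genes are also expressed in hair cells. Hair cell markers summed to 2999 to 3544 CPM in cochlear mutants, against 4219 to 5063 CPM in heterozygotes. There 6 of 12 were lower, and with the block 10 were lower and 1, Atoh1, was higher. Myo6 made up most of that sum, at 2094, 2445 and 2473 CPM in mutants, against 3418, 2890 and 3394 CPM in heterozygotes. In the vestibule the hair cell sums overlapped (10481 to 11132 CPM in mutants, 9654 to 10560 CPM in heterozygotes). Of 12 hair cell markers there, 2 were higher, or 5 higher and 1 lower with the block. Mesenchyme markers summed to 1109 to 1525 CPM in vestibular mutants, against 2009 to 2663 CPM in heterozygotes (2 of 13 lower, or 11 with the block), and glia markers to 263 to 294 CPM in mutants, against 418 to 476 CPM in heterozygotes (1 of 12 lower, or 8 with the block). Both sums overlapped in the cochlea, as did the supporting cell, macrophage and endothelium sums in both organs. Of these, 1 supporting cell marker was lower and 2 macrophage markers were higher in the cochlea, and limma called none in the vestibule (1 higher and 3 lower supporting cell, 2 lower macrophage and 2 lower endothelium markers at an unadjusted p under 0.05, and 0 by edgeR). With the block, 2 of 13 supporting cell markers were higher and 4 lower there, and 3 of 12 macrophage and 4 of 8 endothelium markers were lower, where 12.8% of all genes were. The part of these cell types in the protocadherin changes was not tested.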

How the data were processed

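RNA bound to HA-tagged ribosomes was measured in 12 libraries of 4 groups, grouped by their labels. The deposited values were CPM per gene, 1 table per library, per the file headers. The submitters' processing notes name TopHat and GRCm38. The sources used here do not give the counter, its strand setting or its annotation. Every CPM value was a whole number of reads to within 1e-06 (100% of values).

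Genes with 1 CPM or more in at least 3 of 6 libraries of an organ were fitted in each organ with limma 3.58.1 (R 4.3.3, trend) on log2(CPM + 1), with Benjamini-Hochberg adjustment over all genes tested and a threshold of 0.05; fold changes on this scale understate those of low genes. Organs were contrasted by an interaction term over all 12 libraries. Quasi-likelihood tests of edgeR 4.0.16 (TMM) on the recovered reads were an alternative, beside other pseudocounts, filters and scalings, a replicate block, and leaving out libraries. The limma and edgeR fits within each organ, without the block, were tested on simulated data. Those data had changes in well expressed genes only and no replicate effect. The block and interaction fits were not tested in this way. Exon sharing was computed from GENCODE M21 and start sites from RefSeq (GRCm38.p6); 28300 of 28342 cochlear and 24703 of 24726 vestibular identifiers were in the annotation.

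Replicate numbers are taken as pairing by correlation, in the replicate block only and not in the main fit. Deviations of same-numbered libraries correlated at 0.226, 0.226 and 0.420 in the cochlea and 0.766, 0.508 and 0.599 in the vestibule, and the labels do not say why. In the vestibule mutant 3 also correlated with heterozygote 2 (0.318) and mutant 2 with heterozygote 3 (0.220). The other vestibular pairs of unlike number correlated negatively. P-values measure the spread between the labelled biological triplicates. Genes named are Gfi1, members called, the 3 with the highest level per kb of all exon (the same 3 as per kb of unshared exon in every cluster and organ) and the largest positive and negative changes per cluster and organ, the C-types, and called genes of the lists (at most 4 per organ). Pcdh7 was named beyond that limit, as a further cochlear call of its list. Vestibular values of Pcdh15 are given although it was not called there. Myo6 and Atoh1 are named among the hair cell markers after their values were seen. Members and lists were chosen with earlier results of these data known. Member sequences are not reported here. Precision is limited by depth, with 1 read worth 0.0340 to 0.133 CPM.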

Additional observations from a re-analysis of the deposited data

Results flagged for a closer look

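For 3 members the genotype change itself differed between organs by the interaction test of limma over 14674 genes. The cochlear minus vestibular log2 change was -2.34 for the upstream Pcdha11 entry (ENSMUSG00000007440), with log2 changes of 0.63 in the cochlea and 2.97 in the vestibule. It was -1.38 for Pcdhb14 (0.23 and 1.61) and -1.29 for Pcdhga3 (0.65 and 1.94). Organ and library kit cannot be told apart in these differences. The upstream Pcdha11 entry was at 0.811 to 3.36 CPM in cochlear mutants and 0.635 to 1.19 CPM in heterozygotes, close to the filter of 1 CPM, whereas Pcdhb14 and Pcdhga3 were well above it in both organs.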

How the results depend on the processing

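Of the cochlear and vestibular alternatives, the replicate block changed the counts most: 6 cochlear members, 27 vestibular members and 10 in the difference between organs, against 3, 15 and 3. Without a filter 7 vestibular members were called, all among the 15, and more genes were then tested. The difference gave 6 with a pseudocount of 4, 5 with median-of-ratios rescaling and 6 with quantile normalization; the cause was not tested. Leaving out each library gave 1 to 3 cochlear calls, 6 to 12 vestibular calls and 2 to 3 in the difference. Shares of all genes called are given for the main, block and edgeR fits alone. Cluster sums kept their direction under every alternative, and no called value changed sign.

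Sign changes were limited to members that did not pass. Pcdhgc3 in the cochlea gave -0.026 with median-of-ratios rescaling, -0.034 with quantile normalization, -0.0022 in edgeR and -0.046 without both replicate 3 libraries, where Pcdhgc4 gave -0.020 and Pcdhb11 -0.093. In the vestibule Pcdhb18 gave 0.010 with quantile normalization, and Pcdhgc3 -0.025 and Pcdhgb4 -0.13 without both replicate 1 libraries. Leaving out each cochlear library gave -0.066 to 0.24 for Pcdhgc4, -0.069 to 0.40 for Pcdhb18, -0.30 to 0.049 for Pcdha3, -0.082 to 0.091 for Pcdhgc5, -0.18 to 0.21 for Pcdhgc3, -0.47 to 0.10 for Pcdha12, -0.080 to 0.25 for Pcdhgb4, -0.19 to 0.19 for Pcdhga6 and -0.0046 to 0.54 for Pcdha2. Leaving out each vestibular library gave -0.26 to 0.16 for Pcdhb18, -0.073 to 0.29 for Pcdhgc5, -0.15 to 0.30 for Pcdhgc3 and -0.12 to 0.31 for Pcdhgb4.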

Other observations

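Other genes annotated within the span of the clusters, 19 listed in the cochlea and 18 in the vestibule, include antisense and processed transcripts. Of these 8 and 7 were tested, and none was called in either organ (limma). The annotated antisense genes there summed to 14.9 CPM in vestibular mutant replicate 1 and 2.34 and 2.58 CPM in the other mutants, against 8.84 CPM in heterozygote replicate 1 and 3.15 and 1.29 CPM in the other heterozygotes. The replicate 1 libraries of both genotypes were thus highest. Antisense exons cover over 10% of the exon bases of the downstream Pcdha11 entry, Pcdhb12 and 5 gamma genes (Pcdhga7, Pcdhga10, Pcdhgb7, Pcdhga11 and Pcdhgc3), none of which was called by limma without the replicate block. With the block the downstream Pcdha11 entry (adjusted p = 0.0350), Pcdhga7 (0.0181) and Pcdhga11 (0.00275) were higher in the vestibule. The reads of these 7 genes cannot be told apart from antisense reads if counting ignored strand. Below the 10% cut, antisense exons cover 8.79% of the exon bases of Pcdhga8 and 7.43% of those of Pcdha6. Both were called in the vestibule by limma, and the same limit applies to that part of their exons.

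Along the beta cluster, levels per kb of unshared exon ran up toward the 3′ end in the cochlea, with a rank correlation of level with order of 0.75 in mutants and 0.78 in heterozygotes over 22 genes. In the vestibule it was 0.11 in mutants and 0.44 in heterozygotes. These are descriptions over genes of the same libraries.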
